A study of Mus musculus with 10 samples.

Results

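Expression of the semaphorins and their receptors, the plexins and neuropilins, was followed in RNA-seq libraries of intratelencephalic projection neurons (IT-PNs) from layer 5 of the mouse primary motor cortex (M1). The genes were chosen by symbol and comprised 20 semaphorins, 9 plexins and 2 neuropilins, which were 31 of the 24453 genes in the count table. All 5 animals were male *Fezf2-Gfp* reporter mice of the hemizygous line (Zfp312-EGFP)CO61GsatMmnc on a Swiss Webster background, whose GFP is driven by regulatory elements of *Fezf2*. A fluorescent cholera toxin subunit b tracer (CTB), which travels from axon endings back to cell bodies, was injected into the left M1 at postnatal day 23 to 25. Layer 5 of the right M1 was collected at postnatal day 28 to 32, and the cells of each animal were sorted into *Fezf2+ve* IT-PNs, with GFP and CTB, and *Fezf2-ve* IT-PNs, with CTB alone. With 1 library of each type per animal there were 5 libraries per type, and those with the same number came from the same animal. GFP reports the transgene, and *Fezf2* itself had 1 read in the 10 libraries. By RT-PCR the paper detected endogenous *Fezf2* in the sorted cells with GFP and CTB, and not in those with CTB alone.

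Semaphorins are ligands that steer growing axons and dendrites, and in the mature cortex they also act on synapses. Members of class 3 are secreted, those of classes 4, 5 and 6 span the membrane, and *Sema7a* encodes a protein held in the membrane by a lipid anchor. Plexins are the main receptors and signal through small GTPases, whereas neuropilins bind most secreted semaphorins and signal with a plexin of the A group as partner. Class 6 semaphorins bind plexins of the A group directly. The comparison asked which of these ligands and receptors differ between IT-PN types that lie side by side in layer 5.

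Between 89138 and 217738 reads were counted on genes per library. The detection floor was set at 3 reads, which came to 13.8 to 33.7 CPM (read counts scaled by the gene reads of the library) depending on the library. These reads were amplified by PCR and in vitro transcription and carry no molecular identifier, so floors and intervals given here cover counting error only. *Fezf2+ve* library 1 stood apart from the others, since 46.7% of its reads on genes and on ERCC spike-in RNA together fell on the spike-in, compared with 2.79 to 27.1% in the other 9 libraries. In the same library *Sema6a* alone took up 29.8% of the gene reads, so values are given with and without it wherever it decides them.

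The markers of the sorted cell type were sparse. Of 9 markers of excitatory projection neurons, 5 were tested, *Tbr1* had no read, and *Slc17a7*, the vesicular glutamate transporter of cortical projection neurons, had 11 reads in the 10 libraries. The summed list had 69, 17, 21, 1 and 9 reads in *Fezf2+ve* libraries 1 to 5 and 12, 4, 556, 9 and 9 in *Fezf2-ve* libraries 1 to 5. The high value of *Fezf2-ve* library 3 came from *Camk2a*, a kinase of excitatory synapses and the marker with the most reads, of which that library held 529 of 588. Of 10 markers of layer 5 projection subtypes, *Crym* had no read and *Rorb* had the most, with 646 of its 728 reads also in *Fezf2-ve* library 3. The summed subtype list had 15, 22, 8, 49 and 14 reads in the *Fezf2+ve* and 24, 7, 671, 8 and 32 reads in the *Fezf2-ve* libraries.

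The 31 genes together held 38847 of the 1553687 gene reads, of which 35239 lay in *Fezf2+ve* library 1 and 3608 in the other 9 libraries. They made up 29.8, 0.0845, 0.0508, 0.0957 and 0.155% of the gene reads in *Fezf2+ve* libraries 1 to 5. In *Fezf2-ve* libraries 1 to 5 their share was 0.237, 0.0875, 0.198, 0.0383 and 0.967%. The share was thus far higher in *Fezf2+ve* library 1 than anywhere else, and the remaining libraries of both types overlapped. The mean was 6.04% ± 13.3 (SD, n = 5) in *Fezf2+ve* IT-PNs and 0.306% ± 0.378 (SD, n = 5) in *Fezf2-ve* IT-PNs, and without *Fezf2+ve* library 1 the first was 0.0966% ± 0.0436 (SD, n = 4). Without *Fezf2-ve* library 5 the second was 0.140% ± 0.0929 (SD, n = 4). The order of the means therefore turned with *Fezf2+ve* library 1.

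**Figure D1:**
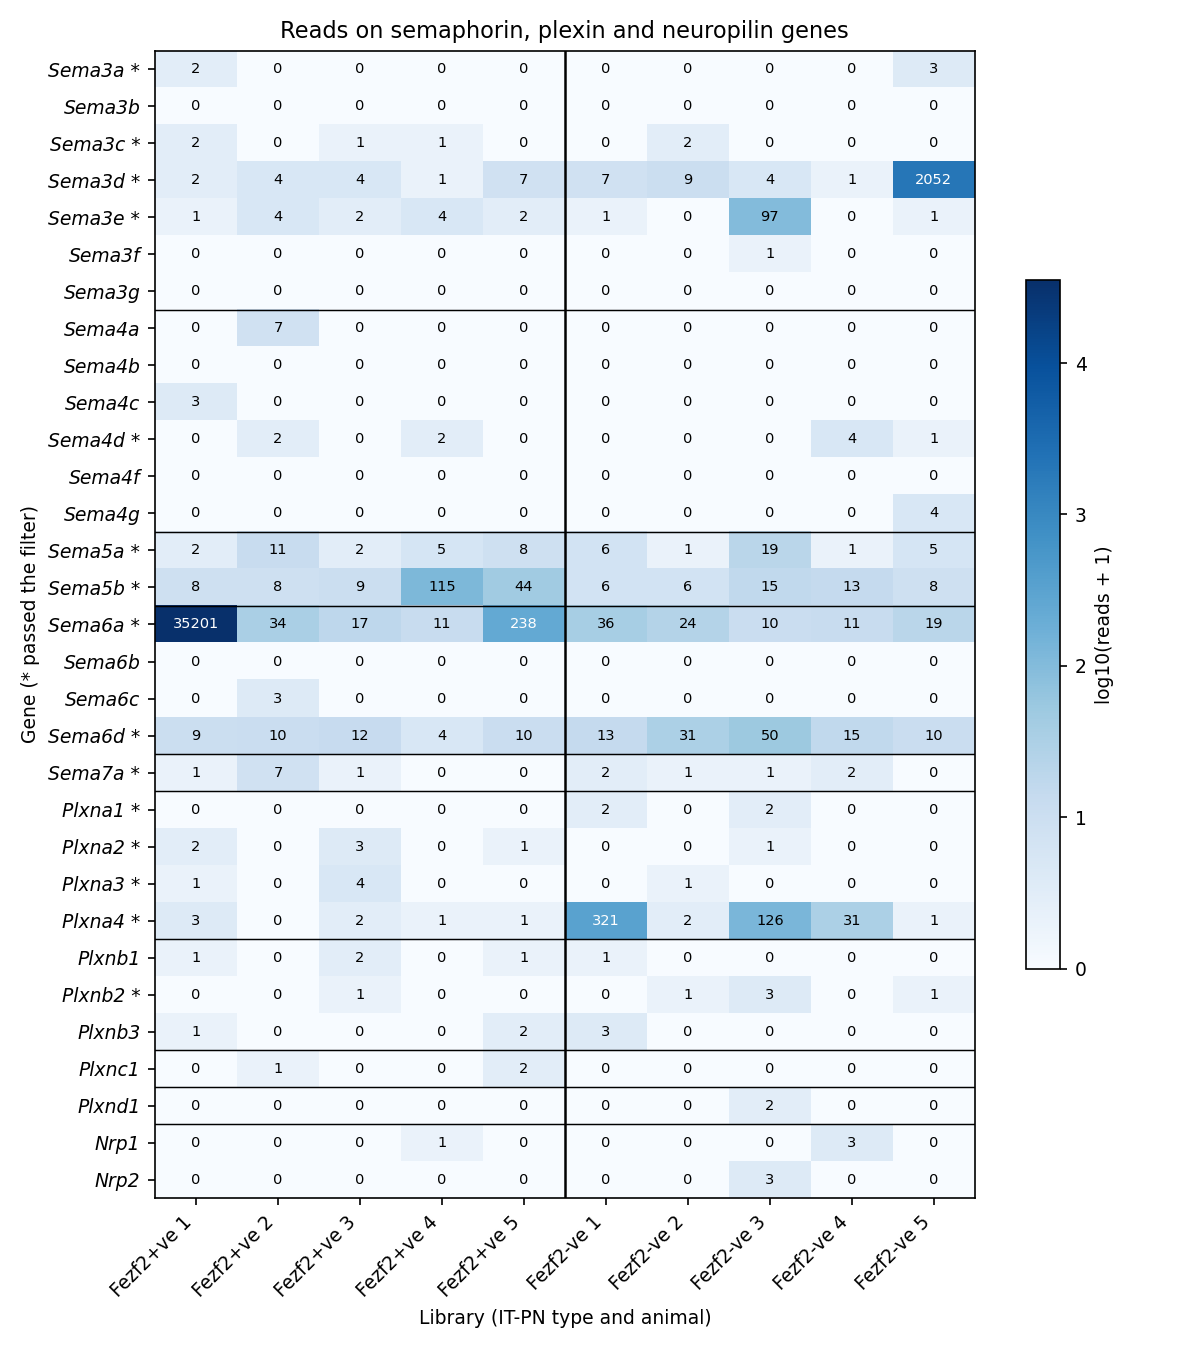
Reads on each of the 31 genes in the 5 *Fezf2+ve* (left) and 5 *Fezf2-ve* libraries (right), with colour on a log10(reads + 1) scale, horizontal lines between subgroups, and an asterisk on each of the 15 genes that passed the filter. Most cells hold 0 to 3 reads, and *Sema6a* in *Fezf2+ve* library 1 (35201 reads) and *Sema3d* in *Fezf2-ve* library 5 (2052 reads) stand out.

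Without *Sema6a* the other genes held 3246 reads, and their share had a mean of 0.0497% ± 0.0230 (SD, n = 5) in *Fezf2+ve* IT-PNs, against 0.292% ± 0.381 (SD, n = 5) in *Fezf2-ve* IT-PNs, which was 0.125% ± 0.0918 (SD, n = 4) without library 5. These shares are of all gene reads, those of *Sema6a* included. The 95% exact (Clopper-Pearson) interval of that share was 0.0228 to 0.0441% in *Fezf2+ve* library 1 (0.0458% of the reads on genes other than *Sema6a*), which had no more reads on the rest of the family than the other libraries of its type. *Fezf2-ve* library 5 had the highest share, 0.958% (interval 0.918 to 1.000%), and 2052 of its 2086 reads were on *Sema3d*. With both *Sema6a* and *Sema3d* left out, the 29 remaining genes had 34 to 355 reads per library, 332 in all *Fezf2+ve* and 823 in all *Fezf2-ve* libraries. The latter sum was 468 without *Fezf2-ve* library 1, and with *Plxna4* left out as well the sums over all libraries were 325 and 342.

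**Figure D2:**
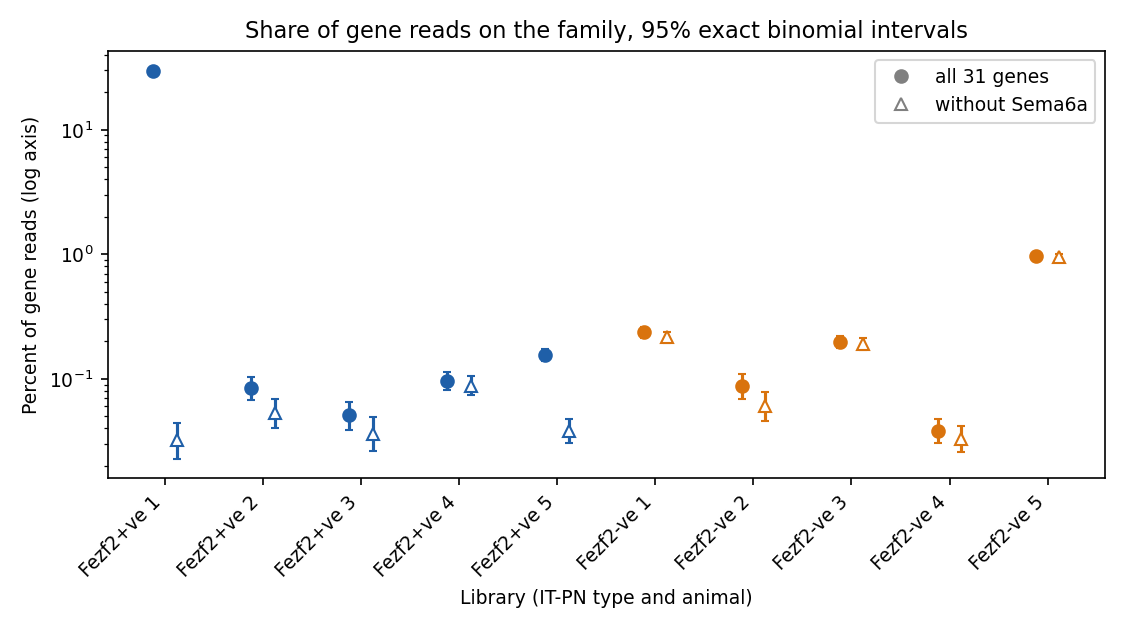
Percent of gene reads on the family in each library, on a log axis, for all 31 genes (filled circles) and without *Sema6a* (open triangles), with 95% exact binomial intervals; *Fezf2+ve* libraries are blue and *Fezf2-ve* libraries orange. Leaving out *Sema6a* takes *Fezf2+ve* library 1 from 29.8 to 0.0322% of all gene reads, or 0.0458% with the reads of *Sema6a* also taken out of the total.

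Of the 31 genes, 15 passed the filter of at least 10 CPM in at least 2 libraries and were tested among 7409 genes, 16 did not pass, and 5 (*Sema3b*, *Sema3g*, *Sema4b*, *Sema4f* and *Sema6b*) had no read at all. With the animal as a block, edgeR's quasi-likelihood test called no gene at a Benjamini-Hochberg adjusted p of 0.1 or less (0% of the tested genes), and the lowest adjusted p of the family was 0.998. At an unadjusted p under 0.05 by the same test, 1 of the 15, *Plxna4*, was set apart, compared with 3.89% of all tested genes, and with 2.27% when only genes lower in *Fezf2+ve* IT-PNs are counted. DESeq2 with the animal block called *Plxna4* alone among them at an adjusted p of 0.1 or less, compared with 1.32% of all tested genes, and was not run without single libraries. DESeq2 gave no adjusted p for 5745 genes, 9 of the 15 among them, and *Plxna4* was 1 of the 6 others, compared with 5.89% of all genes that had one. Without the animal block edgeR called *Plxna4*, *Sema3d* and *Sema6a*, 3 of the 15 compared with 3.77% of all genes, and 4 of the 15, these and *Sema5b*, had an unadjusted p under 0.05 compared with 18.2%. In that fit all 3 calls were lost when library *Fezf2+ve* 1, *Fezf2-ve* 1, *Fezf2-ve* 3 or *Fezf2-ve* 5 was left out, an alternative chosen after seeing the data. The edgeR adjusted p was then 0.136 to 0.146 for *Plxna4*, 0.124 to 0.868 for *Sema3d* and 0.137 to 0.396 for *Sema6a*. None of the 15 genes had CPM values that did not overlap between the types, which held for 1.04% of all tested genes. Fewer cells that express a gene and less RNA per cell cannot be told apart in these sorted pools.

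Fold changes are on the log2 scale, *Fezf2+ve* relative to *Fezf2-ve*, for the 8 tested genes with at least 10 reads. They were above 0 for 5 genes and below 0 for 3, with a median of 0.36, compared with -0.16 over all tested genes, and none of the 8 directions turned with RLE size factors or scaling by library size alone, nor did those of the 7 genes other than *Sema6a* with that gene left out of the counts. Their standard errors ran from 0.99 to 1.82, compared with a median of 1.78 over all tested genes. The 7 other tested genes had at most 4 reads in any library and are given by their reads.

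Among the secreted ligands of class 3, *Sema3d* and *Sema3e* had reads in both types, and for each 1 *Fezf2-ve* library held most of them. *Sema3d*, whose product guides axons and migrating neural crest cells, had 2, 4, 4, 1 and 7 reads in *Fezf2+ve* libraries 1 to 5 and 7, 9, 4, 1 and 2052 in *Fezf2-ve* libraries 1 to 5. *Fezf2-ve* library 5 thus held 98.1% of the reads, and in the other 9 libraries the types overlapped between 1 and 9 reads. Its level was 25.8 ± 13.4 CPM (SD, n = 5) in the *Fezf2+ve* type, against 1919 ± 4196 CPM (SD, n = 5) in the *Fezf2-ve* type, and the latter was 42.8 ± 41.6 CPM (SD, n = 4) without library 5. The log2 fold change was -1.49 ± 1.46 (SE) with the animal block (edgeR adjusted p = 0.998), and in 3 of 5 animals *Sema3d* had the lower level in *Fezf2+ve* cells. Without animal 5 it was -0.57 ± 0.96 (SE, edgeR adjusted p = 1.00). Without the block it was -6.47 ± 1.83 (SE, edgeR adjusted p = 0.0931), and without the block and *Fezf2-ve* library 5 it was -0.47 ± 0.96 (SE, edgeR adjusted p = 0.868). Over all alternatives its adjusted p ran from 0.0931 to 1.00.

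*Sema3e* encodes the ligand of plexin D1, which it binds without a neuropilin. It had 1, 4, 2, 4 and 2 reads in *Fezf2+ve* and 1, 0, 97, 0 and 1 in *Fezf2-ve* libraries 1 to 5. All 5 *Fezf2+ve* libraries had reads, whereas in the *Fezf2-ve* type library 3 was the highest of all 10 and the others had at most 1. The level of *Fezf2+ve* IT-PNs, 19.8 ± 12 CPM (SD, n = 5), therefore lay below that of *Fezf2-ve* IT-PNs with library 3 (117 ± 256 CPM, SD, n = 5) and above it without (2.64 ± 3.10 CPM, SD, n = 4). *Fezf2+ve* libraries 1, 3 and 5 and every *Fezf2-ve* library but 3 were under the floor of 3 reads. The fitted log2 fold change was 1.05 ± 1.62 (SE) with the animal block and -2.15 ± 1.52 (SE) without it, with adjusted p-values of 0.998 and 0.486 by edgeR. With the block the value was 0.02 without animal 4, 0.37 without animal 2 and 2.43 without animal 3. The direction of *Sema3e* thus turned with the block, and without *Fezf2-ve* library 3 the fit without the block gave 2.54 ± 1.30 (SE, edgeR adjusted p = 0.331, the lowest of its alternatives, of which the highest was 1.00). *Fezf2-ve* library 3 was also the highest of all 10 in markers of excitatory projection neurons (556 reads) and of layer 5 subtypes (671 reads). The part of this peak in the values of *Sema3e* was not tested.

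The other class 3 genes were at or under the detection floor. *Sema3a*, a repellent of cortical axons that needs neuropilin 1, had 2 reads in *Fezf2+ve* library 1 and 3 in *Fezf2-ve* library 5, and none elsewhere. *Sema3c* had 4 reads in *Fezf2+ve* and 2 in *Fezf2-ve* libraries. *Sema3f* had 1 read. No difference was detectable for these genes at this depth.

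The class 4 ligands were nearly absent from the libraries, with 14 reads in *Fezf2+ve* and 9 in *Fezf2-ve* libraries for the 6 genes together. *Sema4d*, a ligand of plexins of the B group, was the only one that passed the filter, with 2 reads each in *Fezf2+ve* libraries 2 and 4 and 4 and 1 reads in *Fezf2-ve* libraries 4 and 5. *Sema4a* had 7 reads, all in *Fezf2+ve* library 2.

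Both class 5 ligands, which carry thrombospondin repeats, had reads in every library. *Sema5a* lay under the floor of 3 reads in *Fezf2+ve* libraries 1 and 3 and in *Fezf2-ve* libraries 2 and 4. *Sema5b* had 8, 8, 9, 115 and 44 reads in *Fezf2+ve* and 6, 6, 15, 13 and 8 reads in *Fezf2-ve* libraries 1 to 5. *Fezf2+ve* libraries 4 and 5 were the highest, and the other 3 overlapped with the *Fezf2-ve* libraries. The TMM-normalized level, log2(CPM + 1), was 7.25 ± 2.00 (SD, n = 5) in *Fezf2+ve* IT-PNs, against 5.81 ± 0.65 (SD, n = 5) in *Fezf2-ve* IT-PNs, and in 4 of 5 animals the *Fezf2+ve* library had the higher level. A two-sided exact permutation test over the pairs gave p = 0.188, where 5 animals allow no p below 0.0625. The mean paired difference was 1.44 ± 1.69 (SD, n = 5). The log2 fold change was 1.43 ± 1.12 (SE, edgeR adjusted p = 0.998) and was 0.81 without animal 4. Without the block it was 2.57 ± 1.16 (SE, edgeR adjusted p = 0.234, unadjusted p = 0.0346), and over all alternatives the adjusted p ran from 0.229 to 1.00.

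*Sema5a* was spread more evenly, with 2, 11, 2, 5 and 8 reads in *Fezf2+ve* and 6, 1, 19, 1 and 5 reads in *Fezf2-ve* libraries 1 to 5. The library with the most reads, *Fezf2-ve* 3, held 31.7% of them, and the types overlapped over nearly their whole range. The log2 fold change was 0.57 ± 1.27 (SE, edgeR adjusted p = 0.998), and its sign turned when animal 2 or animal 4 was left out (-0.06 and -0.03).

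In class 6, *Sema6a* and *Sema6d* were found in every library and *Sema6b* in none. *Sema6a*, a ligand of plexins A2 and A4 that can also act as a receptor, had 35201, 34, 17, 11 and 238 reads in *Fezf2+ve* libraries 1 to 5 and 36, 24, 10, 11 and 19 in *Fezf2-ve* libraries 1 to 5. *Fezf2+ve* library 1 held 98.9% of the reads, *Fezf2+ve* library 5 came next, and the reads of the other 3 *Fezf2+ve* libraries lay within the range of the *Fezf2-ve* libraries. In *Fezf2+ve* library 1 the gene took up 29.8% of the gene reads (95% exact interval 29.5 to 30.1%), which was 3.65 times the reads of the next gene in that library, and its CPM was 255 times that of *Fezf2+ve* library 5.

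Scaled to depth, *Sema6a* was at 297975, 316, 144, 72.6 and 1170 CPM in *Fezf2+ve* and at 214, 269, 59.3, 52.0 and 87.3 CPM in *Fezf2-ve* libraries 1 to 5. In 5 of 5 animals the *Fezf2+ve* library had the higher level, by little in animals 2 and 4, and a two-sided exact permutation test over the pairs gave p = 0.0625, the smallest that 5 animals allow. A higher level in *Fezf2+ve* cells in all 5 animals was found for 1.69% of all tested genes and, among the 15 tested genes of the family, for *Sema6a* alone. Without *Fezf2+ve* library 1, the means were 426 ± 507 CPM (SD, n = 4) in *Fezf2+ve* IT-PNs, against 136 ± 99.0 CPM (SD, n = 5) in *Fezf2-ve* IT-PNs. The log2 fold change with the animal block was 2.30 ± 1.82 (SE, edgeR adjusted p = 0.998), and 1.30 ± 1.16 (SE, edgeR adjusted p = 1.00) without animal 1. Without the block it was 8.84 ± 2.53 (SE, edgeR adjusted p = 0.0931), and leaving out *Fezf2+ve* library 1 as well brought it to 1.88 ± 1.11 (SE, edgeR adjusted p = 0.396), so the size of the value rested on 1 library. The call was also lost without *Fezf2-ve* library 1, 3 or 5, with log2 fold changes of 8.61 to 9.04. Its adjusted p ran from 0.0931 to 1.00 over all alternatives.

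*Sema6d*, whose product binds plexin A1, had 9, 10, 12, 4 and 10 reads in *Fezf2+ve* and 13, 31, 50, 15 and 10 reads in *Fezf2-ve* libraries 1 to 5. It was the most even member, since the library with the most reads held 30.5% of them, and *Fezf2-ve* libraries 2 and 3 were the highest. Its normalized level was 6.04 ± 0.30 (SD, n = 5) in *Fezf2+ve* IT-PNs, against 6.95 ± 1.03 (SD, n = 5) in *Fezf2-ve* IT-PNs on the log2(CPM + 1) scale. The *Fezf2+ve* library was the lower in 3 of 5 animals, and a two-sided exact permutation test over the pairs gave p = 0.250 (no p below 0.0625 is possible), with a mean paired difference of -0.91 ± 1.00 (SD, n = 5). The log2 fold change was -0.92 ± 0.99 (SE, edgeR adjusted p = 0.998). It lay below 0 under all 17 alternatives, between -1.38 and -0.66.

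*Sema7a*, the class 7 ligand, had 1, 7, 1, 0 and 0 reads in *Fezf2+ve* and 2, 1, 1, 2 and 0 reads in *Fezf2-ve* libraries 1 to 5. With at most 2 reads in 9 of the libraries, no difference was detectable at this depth (log2 fold change 0.16 ± 1.61, SE, edgeR adjusted p = 0.998). The ratio of pooled CPM, *Fezf2+ve* over *Fezf2-ve*, was 1.83 (95% exact counting interval 0.583 to 6.26), and 0.482 (0.0476 to 2.70) without *Fezf2+ve* library 2.

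**Figure D3:**
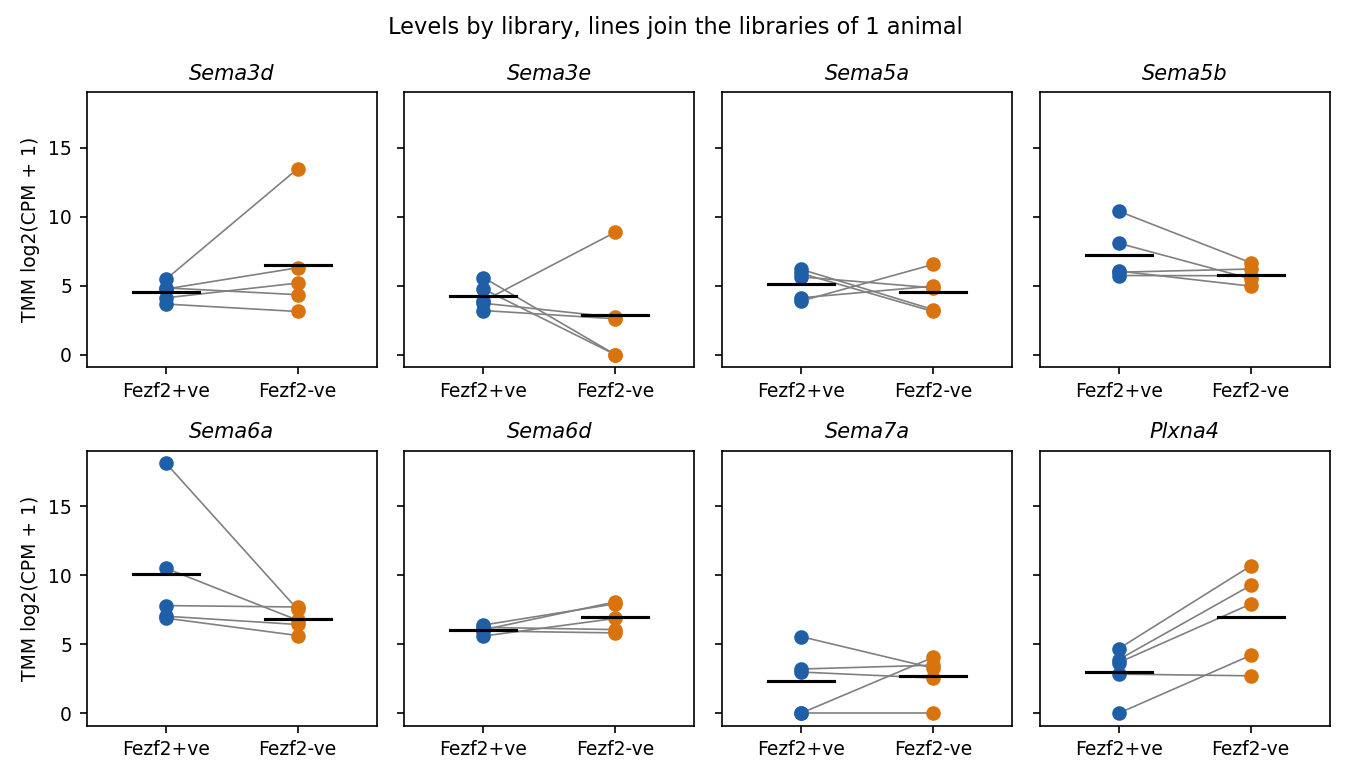
TMM-normalized log2(CPM + 1) of the 8 tested genes with at least 10 reads in *Fezf2+ve* (blue) and *Fezf2-ve* libraries (orange), with grey lines joining the libraries of 1 animal and black bars at the means (n = 5). *Sema6a* has the higher level in *Fezf2+ve* cells in 5 of 5 animals and *Plxna4* the lower in 4 of 5, and single libraries stand apart for *Sema6a*, *Sema3d* and *Sema3e*. For *Plxna4* both libraries of animals 2 and 5 are under the floor of 3 reads.

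Among the receptors, *Plxna4* had 488 reads and the 8 other plexins 39 together. *Plxna4* encodes a plexin that acts with neuropilins as a receptor of class 3 semaphorins and alone as a receptor of *Sema6a*. It had 3, 0, 2, 1 and 1 reads in *Fezf2+ve* libraries 1 to 5 and 321, 2, 126, 31 and 1 in *Fezf2-ve* libraries 1 to 5. *Fezf2-ve* libraries 1, 3 and 4 lay above all 5 *Fezf2+ve* libraries, whereas *Fezf2-ve* libraries 2 and 5 had as few reads as these. All *Fezf2+ve* libraries were at or under the floor of 3 reads.

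In pooled reads *Plxna4* was at 563 CPM in *Fezf2-ve* and 10 CPM in *Fezf2+ve* IT-PNs, a ratio of 56.2 with a 95% exact counting interval of 27.1 to 140. Without *Fezf2-ve* library 1, which held 65.8% of the reads, the ratio was 23.3 (interval 11 to 58.8). Across animals, the mean normalized level was 3.02 ± 1.81 (SD, n = 5) in *Fezf2+ve* IT-PNs, against 6.95 ± 3.38 (SD, n = 5) in *Fezf2-ve* IT-PNs on the log2(CPM + 1) scale. In 4 of 5 animals *Plxna4* had the lower level in *Fezf2+ve* cells, with animal 5 slightly the other way, and a two-sided exact permutation test over the pairs gave p = 0.125 (no p below 0.0625 is possible). In animals 2 and 5 the libraries of both types were under the floor of 3 reads, so the direction in these animals was not measurable. The mean paired difference, -3.93 ± 2.39 (SD, n = 5), was larger than its spread between animals. The fitted log2 fold change was -4.38 ± 1.5 (SE, edgeR adjusted p = 0.998, unadjusted p = 0.00888). DESeq2 with the animal block gave the same fold change with a standard error of 1.24 and an adjusted p of 0.0268, and edgeR without the block gave -5.39 ± 1.56 (SE, adjusted p = 0.0931). Leaving out *Fezf2-ve* library 1 as well gave -4.35 ± 1.47 (SE, edgeR adjusted p = 0.146), and over all alternatives the adjusted p ran from 0.0268 to 1.00. The sign held when each animal was left out in turn, with log2 fold changes of -5.28 to -3.74, and so did an unadjusted p under 0.05 in edgeR.

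**Figure D4:**
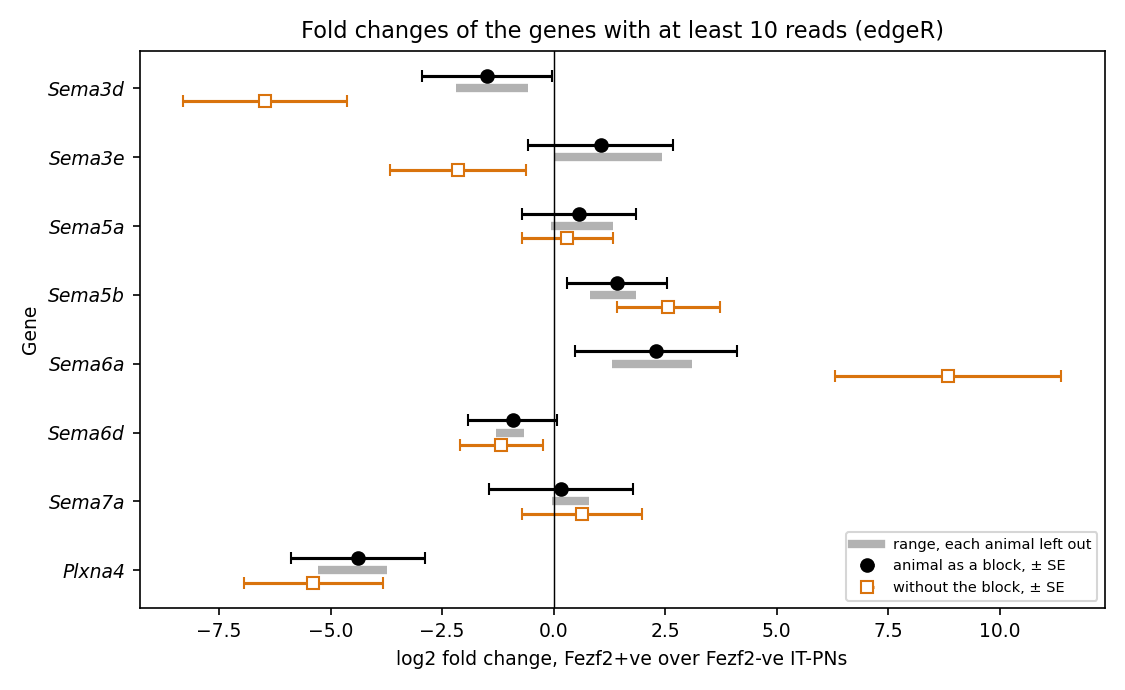
Log2 fold changes, *Fezf2+ve* relative to *Fezf2-ve*, for the 8 tested genes with at least 10 reads, from edgeR with the animal as a block (black circles, ± SE) and without it (open squares, ± SE), and the range when each animal is left out in turn with the block (grey bars). *Plxna4* lies below 0 throughout, *Sema3e* changes side between the fits, and *Sema6a* and *Sema3d* move furthest from 0 without the block.

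The 3 other plexins of the A group passed the filter with few reads. *Plxna1*, a receptor of *Sema6d*, had 2 reads each in *Fezf2-ve* libraries 1 and 3 and none in *Fezf2+ve* libraries. *Plxna2*, another receptor of *Sema6a*, had 2, 0, 3, 0 and 1 reads in *Fezf2+ve* libraries and 1 read in *Fezf2-ve* library 3. *Plxna3* had 5 reads in *Fezf2+ve* libraries, 4 of them in library 3, and 1 in *Fezf2-ve* library 2. *Plxna2* was the higher in *Fezf2+ve* cells in 3 animals and the lower in 0. Its unadjusted p in edgeR was 0.237 with the block, 0.150 without it, and under 0.05 without the block and *Fezf2-ve* library 3. With so few reads, these values do not show a difference between the types at this depth.

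In the B group *Plxnb2* passed the filter with 1 read in *Fezf2+ve* and 5 in *Fezf2-ve* libraries. The group had 8 reads in *Fezf2+ve* and 9 in *Fezf2-ve* libraries together. *Plxnc1*, which encodes the receptor of *Sema7a*, had 3 reads, and *Plxnd1*, which encodes that of *Sema3e*, had 2, so neither was measurable beside its ligand.

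Neuropilins were almost without reads. *Nrp1* had 1 read in *Fezf2+ve* library 4 and 3 in *Fezf2-ve* library 4, and *Nrp2* had 3 reads in *Fezf2-ve* library 3. The co-receptors of the secreted semaphorins were thus at or under the floor in every library, which allows up to 33.7 CPM in the shallowest of them.

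How far 1 library held the reads of a gene varied within the family. The highest library held 30.5% of the reads of *Sema6d*, 31.7% of *Sema5a*, 46.7% of *Sema7a*, 49.6% of *Sema5b*, 65.8% of *Plxna4*, 86.6% of *Sema3e*, 98.1% of *Sema3d* and 98.9% of *Sema6a*. The median of these 8 genes was 57.7%, compared with 50% over the 6141 tested genes with at least 10 reads, and 8.99% of those had over 90% of their reads in 1 library. The 3 most uneven genes had their peaks in 3 different libraries, *Fezf2+ve* 1, *Fezf2-ve* 5 and *Fezf2-ve* 3. For the same 8 genes the biological coefficient of variation fitted by edgeR ran from 1.1 for *Sema5a* to 1.32 for *Sema6a*. Its median over all tested genes was 1.14, and the highest value among the 15 tested genes of the family was 1.37 for *Plxna1*.

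**Figure D5:**
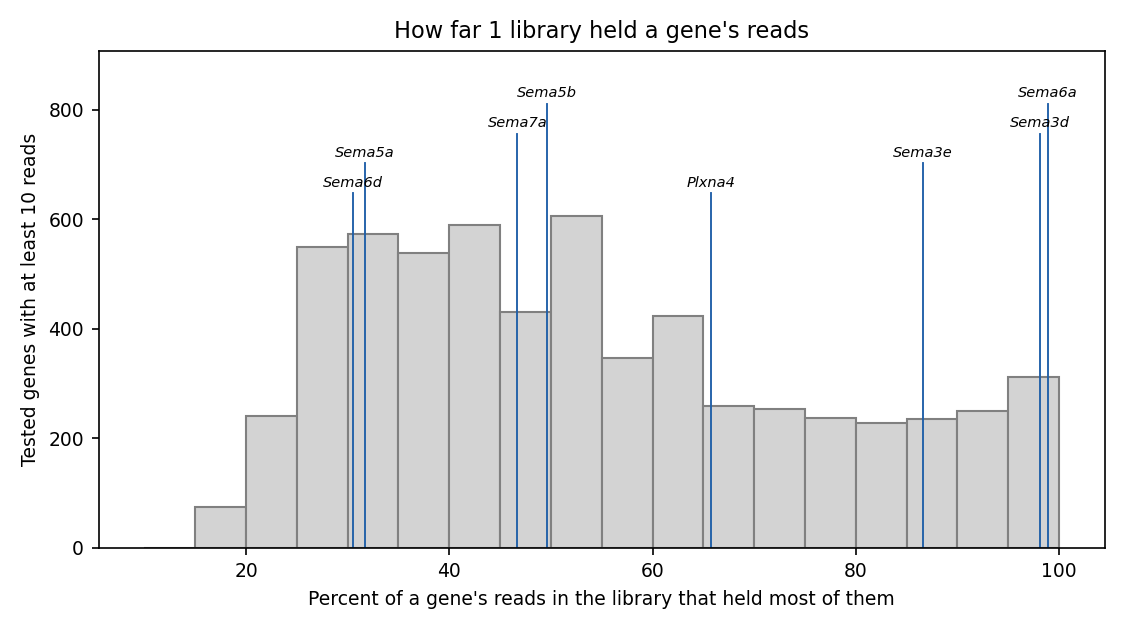
Histogram of the percent of a gene's reads that lay in the library with most of them, for the 6141 tested genes with at least 10 reads (bars of width 5%), with the 8 genes of the family as blue lines. *Sema6d* and *Sema5a* lie near the low end, at 30.5 and 31.7%, and *Sema3d* and *Sema6a* at the high end, at 98.1 and 98.9%.

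Outside the library with most of its reads, *Sema6a* still had 400 reads, *Plxna4* 167, *Sema5b* 117 and *Sema6d* 114. Levels are not ranked between genes here. The study describes its libraries as biased toward the ends of transcripts.

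The genes differ widely in the stretch of genome they cover. In the GENCODE annotation of GRCm38, which is mm10, *Sema6a* (ENSMUSG00000019647) lies on the minus strand of chromosome 18 from 47235598 to 47368870, and exons make up 6.59% of this span. *Plxna4* (ENSMUSG00000029765) lies on the minus strand of chromosome 6 from 32144268 to 32588192, with 3.18% of the span in exons. *Sema5b* (ENSMUSG00000052133) lies on the plus strand of chromosome 16 from 35541145 to 35664732 and *Sema6d* (ENSMUSG00000027200) on the plus strand of chromosome 2 from 124089969 to 124667770.

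*Sema3d* (ENSMUSG00000040254, 12383385 to 12588948), *Sema3a* (13125414 to 13602565), *Sema3e* (ENSMUSG00000063531, 14025276 to 14256689) and *Sema3c* (17574281 to 17730268) follow one another on the plus strand of chromosome 5. *Sema3d* and *Sema3a* had most reads in *Fezf2-ve* library 5, *Sema3a* with 3 reads there, and *Sema3e* in *Fezf2-ve* library 3. *Sema3c* had at most 2 reads in any library, in *Fezf2+ve* library 1 and *Fezf2-ve* library 2, and none in *Fezf2-ve* libraries 3 and 5. Whether the reads of these neighbours vary together was not tested.

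Genes with a long span had more reads, where it is not stated whether reads were counted over whole gene spans or over exons. All 6 genes over 200 kb were tested and 5 of them had at least 10 reads, whereas of the 17 genes under 50 kb 4 were tested and 1, *Sema7a*, had at least 10 reads. Over the 31 genes the Spearman correlation of the span with the reads outside each gene's highest library was 0.64, a description of genes that share the same 10 libraries. The paper reported that many reads of both types mapped to introns. The part of reads within introns in this relation was not tested. Of the genes that overlap a tested member in the annotation, those in the count table had no read.

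Other receptors and co-receptors of semaphorins, such as the cell adhesion molecules that join neuropilins and the netrin receptor *Dcc*, were looked at as a list of 14 genes. Of these 12 had reads and 6 were tested, none had an unadjusted p under 0.05, and the median log2 fold change of the 6 was 1.49, compared with -0.16 over all tested genes. The list had 40, 596, 124, 426 and 207 reads in *Fezf2+ve* and 102, 31, 58, 25 and 25 reads in *Fezf2-ve* libraries 1 to 5. In 4 of 5 animals its share of gene reads was the higher in *Fezf2+ve* cells.

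The 3 genes of the list with the most reads were *Itgb1*, *Nrcam* and *Dcc*. *Itgb1*, the integrin subunit bound by *Sema7a*, had 6, 231, 4, 405 and 2 reads in *Fezf2+ve* and 2 to 10 reads in *Fezf2-ve* libraries, with a log2 fold change of 2.00 ± 1.67 (SE, edgeR adjusted p = 0.998). *Nrcam*, a neuropilin-associated adhesion molecule, had 329 of its 362 reads in *Fezf2+ve* library 2. *Dcc* had 96 and 77 reads in *Fezf2+ve* libraries 3 and 5 and 4 to 13 reads in the other libraries. Each of these genes was thus high in 1 or 2 *Fezf2+ve* libraries, with library 2 shared by *Itgb1* and *Nrcam*, and elsewhere overlapped between the types.

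Of 42 intracellular partners and effectors of plexins and semaphorins, 38 had reads and 26 were tested. Their median log2 fold change was 0.10, and 1 of the 26, *Rap1b*, had an unadjusted p under 0.05 in edgeR, a share near the 3.89% of all tested genes. *Rap1b* encodes a small GTPase of the kind that plexins switch off. It had 0, 0, 0, 0 and 2 reads in *Fezf2+ve* and 5, 0, 7, 5 and 38 reads in *Fezf2-ve* libraries 1 to 5. *Fezf2-ve* libraries 1, 3, 4 and 5 lay above all *Fezf2+ve* libraries, and *Fezf2-ve* library 2 had none. Its log2 fold change was -4.34 ± 1.6 (SE, edgeR adjusted p = 0.998, unadjusted p = 0.0164), and no animal had the higher level in *Fezf2+ve* cells.

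The effectors with the most reads were uneven too. *Trio*, a guanine nucleotide exchange factor, had 67, 0, 15, 4 and 694 reads in *Fezf2+ve* and 24, 7, 312, 10 and 145 reads in *Fezf2-ve* libraries 1 to 5. *Farp1*, whose product is a partner of plexins of the A group, had 10, 462, 23, 269 and 86 reads in *Fezf2+ve* and 267, 20, 13, 14 and 5 reads in *Fezf2-ve* libraries 1 to 5. In 4 of 5 animals *Farp1* had the higher level in *Fezf2+ve* cells, and its log2 fold change was 2.81 ± 1.63 (SE, edgeR adjusted p = 0.998). *Crmp1*, which encodes a mediator of *Sema3a* signals, had 158 of its 186 reads in *Fezf2+ve* library 4. Of the 5 other ligands of neuropilins, the vascular growth factors, 4 were in the count table under the symbols used, and *Vegfb*, *Vegfc* and *Vegfa* had 7, 6 and 1 reads and *Pgf* none.

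Among the markers of other cells, those of microglia separated the types. The 10 markers of microglia, the immune cells of the brain, had 22, 14, 6, 8 and 21 reads in *Fezf2+ve* and 988, 314, 810, 285 and 836 reads in *Fezf2-ve* libraries 1 to 5. In 5 of 5 animals their share of gene reads was the higher in *Fezf2-ve* cells, with a median of 0.384% compared with 0.0103%, and the types did not overlap. All 10 were tested and 7 had an unadjusted p under 0.05 in edgeR, compared with 3.89% of all tested genes. All 7 were lower in *Fezf2+ve* IT-PNs (2.27% of all tested genes), among them *Csf1r*, *P2ry12* and *Tmem119*. *Ctss* had the most reads (817), and no marker was at 0. This list was thus high in the *Fezf2-ve* libraries 1, 3 and 4 that held *Plxna4* reads, and also in libraries 2 and 5, where *Plxna4* had 2 and 1 reads. *Rap1b* had 5, 7, 5 and 38 reads in *Fezf2-ve* libraries 1, 3, 4 and 5 and none in library 2, where the microglia list had 314. The part of this list in the values of these and the other genes was not tested. The paper also reported microglia-associated genes, *Csf1r* among them, as enriched in *Fezf2-ve* IT-PNs. It found neuronal terms among its top expressed genes, without the immune term found for microglia. It also cited earlier work with such genes in callosal projection neurons. How far the sorted pools held cells other than IT-PNs was not tested here either, which limits what each value given for a type stands for.

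The other lists did not separate the types, and none of their tested markers had an unadjusted p under 0.05 in edgeR. Oligodendrocyte markers had 92, 1160, 73, 16 and 82 reads in *Fezf2+ve* and 344, 59, 69, 24 and 59 in *Fezf2-ve* libraries 1 to 5, with *Opalin* at 0. Markers of oligodendrocyte precursors had 560, 393, 207, 33 and 1081 reads in *Fezf2+ve* and 742, 85, 622, 47 and 262 in *Fezf2-ve* libraries, with *Vcan* the gene with the most reads (819 of its 1008 in *Fezf2+ve* library 5) and none at 0. Their share of gene reads was highest in *Fezf2+ve* libraries 5 (0.532%) and 1 (0.474%), the libraries highest in *Sema6a*. The total of *Fezf2+ve* library 1 includes the reads of *Sema6a*, 29.8% of its gene reads, which lowers its share. The order of these libraries thus depends on *Sema6a*. In *Fezf2-ve* library 1, where *Sema6a* had 36 reads, the share of the precursor markers was 0.442%. The part of such cells in the values of *Sema6a* was not tested. Astrocyte markers had 92, 833, 84, 267 and 100 reads in *Fezf2+ve* and 174, 23, 30, 805 and 24 in *Fezf2-ve* libraries, with *Slc1a2* the gene with the most reads and *Gfap* at 0.

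*Fezf2+ve* library 2 was thus the highest of all 10 in both oligodendrocyte and astrocyte markers (1.08 and 0.774% of its gene reads). The same library held most of the reads of *Nrcam* and was high in *Itgb1* and *Farp1*. Within the family it held all 7 reads of *Sema4a*, all 3 of *Sema6c*, 7 of the 15 of *Sema7a* and 11 of the 60 of *Sema5a*. The part of such cells in these values was not tested. Endothelial and mural markers had 1 to 12 reads in *Fezf2+ve* and 3 to 15 in *Fezf2-ve* libraries, with *Flt1* the gene with the most reads and *Vtn* at 0. Interneuron markers had 4, 18, 5, 9 and 360 reads in *Fezf2+ve* and 41, 12, 13, 14 and 1148 in *Fezf2-ve* libraries, nearly all on *Adarb2*, while *Slc32a1*, *Pvalb*, *Vip*, *Lhx6* and *Dlx1* were at 0. *Adarb2* had 1144 reads in *Fezf2-ve* library 5, the library in which *Sema3d* peaked.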

How the data were processed

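Cells were lysed after FACS, ERCC RNA was added, and barcoded cDNA was amplified by PCR and in vitro transcription. Per the labels and the study's methods, the authors used bcl2fastq 1.8.4, mapped reads to mm10 with TopHat2 2.1.1 and counted them on RefFlat genes with bedtools 2.26.0, which counts a read on every gene it overlaps; use of strand is not stated. The deposited counts carry no normalization. The authors' DESeq2 1.10.1 table (means of size-factor-scaled counts, and for each gene a log2 fold change, its standard error, Wald statistic, p and adjusted p) was not used.

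Testing used genes that reached 10 CPM in 2 or more libraries, and edgeR 4.0.16 in R 4.3.3 (TMM, glmQLFit without its legacy mode, animal as a block, Benjamini-Hochberg threshold 0.1). Standard errors were calculated from the fold change and F. DESeq2 1.42.0, the fit without the block, other scalings, filters and thresholds, and leaving out each animal were alternatives. The legacy mode and the fits without the block and 1 library were alternatives chosen after seeing the data. The mode had not been set beforehand and was chosen, after the counts under both modes were seen, to match an earlier processing. Where an adjusted p of DESeq2 is NA, it was kept so. The exact permutation test flips the sign of paired differences. The scripts were tested on simulated data.

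The pairing comes from the labels, by which the cells of one animal were separated into both types. Deviations from the type means correlated by 0.029 on average between libraries of the same animal (-0.027 to 0.097, 5 pairs) and by -0.007 between different animals (20 pairs). All tested genes of the family are named, as are those with at least 10 reads, and from each partner list the genes with an unadjusted p under 0.05 and the 3 with the most reads. From the marker lists the genes at 0 and, for all but the oligodendrocyte list, the gene with the most reads are named. Other genes named were chosen after their values were seen. Members and lists were chosen with earlier results of these data known. Python 3.11.15, numpy 2.4.6, pandas 2.3.3 and scipy 1.17.1 were used.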

Additional observations from a re-analysis of the deposited data

Results flagged for a closer look

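In each type the library farthest from the other 4 was compared with the spread of its group, and 19 of 46 groups of 5 libraries had such a library; for independent values with a normal distribution chance gives about 1 in 20, while CPM values are skewed and several of these groups hold the same reads. For single genes these were *Sema6a* at 297975 CPM in *Fezf2+ve* library 1 (next library 1170 CPM), *Sema3d* at 9424 CPM in *Fezf2-ve* library 5 and *Sema3e* at 575 CPM in *Fezf2-ve* library 3 (next 5.96 CPM). *Sema5b* reached 759 CPM in *Fezf2+ve* library 4, *Sema7a* 65.0 CPM and *Sema5a* 102 CPM in *Fezf2+ve* library 2, and *Sema5a* 113 CPM in *Fezf2-ve* library 3. *Plxna4* and *Sema6d* had no such library in either type.

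The share of the family in gene reads stood apart in *Fezf2+ve* library 1 (29.8%) and in *Fezf2-ve* library 5 (0.967%, or 0.958% without *Sema6a*). *Fezf2+ve* library 1 also had the highest share of spike-in reads (46.7%). Among the marker lists, oligodendrocyte markers held 1.08% of gene reads in *Fezf2+ve* library 2 and 0.205% in *Fezf2-ve* library 1, and astrocyte markers 0.774% in *Fezf2+ve* library 2 and 0.381% in *Fezf2-ve* library 4. Interneuron markers held 0.177% in *Fezf2+ve* library 5 and 0.527% in *Fezf2-ve* library 5. Markers of excitatory projection neurons held 0.330% and those of layer 5 subtypes 0.398% in *Fezf2-ve* library 3. The causes were not tested.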

How the results depend on the processing

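With the animal as a block, edgeR called 0 genes and 0 members under every scaling, filter and threshold tried and without each animal (range 0 to 0); *Plxna4* was the 1 member with an unadjusted p under 0.05 in each (range 1 to 1). All genes with such a p numbered 175 to 270 without each animal and 48 at a threshold of 0.01. Without the replicate block, edgeR called 279 genes and 3 members, and 1345 genes and 4 members had an unadjusted p under 0.05. DESeq2 with the block called 98 genes and 1 member. Without the block and 1 library, edgeR called 15 genes without *Fezf2-ve* 1 and 0 without *Fezf2+ve* 1, *Fezf2-ve* 3 or *Fezf2-ve* 5; 1179, 1188, 1103 and 1198 genes and 3, 3, 4 and 2 members then had an unadjusted p under 0.05. The cause was not tested.

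Of 132 recomputed fold changes of the 8 members, 124 kept their direction. *Sema3e* turned without the block (-2.15), also without *Fezf2+ve* 1 (-2.04), *Fezf2-ve* 5 (-2.45) or *Fezf2-ve* 1 (-2.61). *Sema5a* turned without animal 2 or 4 (-0.06 to 1.33 over all animals). *Sema7a* turned with DESeq2 (-0.06) and without animal 3 (-0.03 to 0.79). *Sema3e* and *Sema7a* did not pass the stricter filter, nor *Sema7a* the filter without animal 2. The mean share of the family in *Fezf2+ve* libraries was 0.0966% without animal 1, 7.52 to 7.54% without another animal and 3.25% of gene and spike-in reads together; in *Fezf2-ve* libraries it was 0.140 to 0.372% without each animal. At this depth genes under about 3 reads per library were not measurable.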
